A study of Mus musculus with 8 samples.

Results

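The transcripts of the mitochondrial genome were taken as all gene symbols of the count table that begin with mt-. These were 37 of 55291 symbols, made up of 13 protein genes, 2 rRNAs and 22 tRNAs. Mouse ventricles dissected at E10.5 gave 8 RNA-seq libraries, 4 of Pkn2 cKO and 4 of control littermates. The cKO embryos were Pkn2 fl/fl and carried XMLC2-Cre, and the controls were Pkn2 fl/fl and Cre-negative, so both groups held floxed Pkn2 alleles on a C57BL/6N background. XMLC2-Cre acts in cardiomyocytes only, while the tissue also held other cells, and the controls carried no Cre transgene. Each library was a separate biological replicate according to the series text, and the methods take a single animal as the unit of replication where nothing else is stated. In such bulk tissue, fewer cells of a type and less RNA per cell cannot be told apart.

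Mitochondrial DNA is a small circle that is copied into RNA from both strands as long precursors. The tRNAs lie between most of the protein genes and rRNAs, and their removal frees the messenger RNAs, which then receive short poly(A) tails. The encoded proteins are core subunits of complexes I, III and IV of the respiratory chain and of ATP synthase (complex V), and the rRNAs build the mitochondrial ribosome. Embryonic cardiomyocytes increase their use of this machinery as the heart matures. The libraries were made from poly(A)-selected RNA with a kit that does not mark strand, so reads of mt-Nd6 and of the 8 tRNAs encoded on the opposite strand could not be told apart from reads of transcripts running across them.

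The mouse nuclear genome holds copies of mitochondrial DNA, and reads from a copied stretch can match both places. In GRCm39, the closest copy matched mitochondrial positions 6390 to 11042 and lay on the minus strand at chr1:24650616-24655269, with 99.936% identity over 4654 aligned bases. It covered the end of mt-Co1, mt-Co2, mt-Atp8, mt-Atp6, mt-Co3, mt-Nd3, mt-Nd4l and the start of mt-Nd4. A match of the whole mitochondrial genome of 16299 bases found 45 nuclear stretches, of which the next was at 97.362% identity over 3260 aligned bases on chromosome 2. The stretches at both ends of the chromosome 1 copy are shown because counts fell steeply between the genes outside and inside them. Mitochondrial bases inside the matched stretch are in capitals, among them position 6393 in mt-Co1, where the copy differs. The first is chrM:6360-6419 and the second chrM:11013-11072, both on the plus strand.
mt-Co1 edge of the copy: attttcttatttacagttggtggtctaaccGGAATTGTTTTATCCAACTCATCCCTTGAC
mt-Nd4 edge of the copy: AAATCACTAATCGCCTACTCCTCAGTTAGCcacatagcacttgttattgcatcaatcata

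Within the matched stretch the mitochondrial genome and the copy differed by 2 substitutions and by 1 base that only the copy holds. The substitutions were A6393T in mt-Co1 and T9461C in mt-Nd3, with the mitochondrial base first and positions counted from the first base of the mitochondrial genome. The one in mt-Nd3 is shown because the counts of this gene and its copy were the most unequal of the genes copied in full, with the differing base in capitals.
mt-Nd3 around position 9461: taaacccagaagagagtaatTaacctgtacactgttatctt
Copy on chromosome 1: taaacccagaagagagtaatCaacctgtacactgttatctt

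The 3 tRNAs with enough counts to be tested are shown with the anticodon in capitals, each written as transcribed from the minus strand. They carry proline at chrM:15356-15422, cysteine at chrM:5192-5257 and asparagine at chrM:5089-5159.
mt-Tp: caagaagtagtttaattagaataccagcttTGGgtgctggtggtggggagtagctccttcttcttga
mt-Tc: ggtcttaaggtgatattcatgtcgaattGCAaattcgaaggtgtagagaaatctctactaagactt
mt-Tn: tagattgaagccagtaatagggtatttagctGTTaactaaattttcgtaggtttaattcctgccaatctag

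The rRNAs end in few added adenines, and the longest runs of A inside them are shown. The part of such runs in poly(A) selection was not tested, and runs of 7 and 8 bases also occurred in mt-Co1 and mt-Nd2. In the rRNAs the longest runs were 5 bases in mt-Rnr1, within chrM:685-729, and 7 bases in mt-Rnr2, within chrM:1468-1514, in capitals.
mt-Rnr1 longest A run: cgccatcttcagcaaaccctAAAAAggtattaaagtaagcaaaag
mt-Rnr2 longest A run: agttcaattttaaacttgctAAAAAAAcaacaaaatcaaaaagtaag
All 37 genes had the same mitochondrial positions in the deposited annotation (GRCm38) and in GENCODE M39 (GRCm39).

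Libraries held 47559845 to 56660938 counts. Pkn2, the targeted gene, was at 81.2 ± 3.07 CPM (counts relative to the TMM-scaled library size; SD, n = 4) in cKO and 144 ± 9.85 CPM in control, a log2 fold change of -0.83 ± 0.060 (SE; edgeR, adjusted p = 7.67e-06). The summed level of 12 cardiomyocyte markers was 38011 to 41041 CPM in cKO and 37725 to 41869 CPM in control, and 0 of them passed the FDR threshold of 0.05 in edgeR. Among markers of other cells, all 10 endothelial markers were higher in cKO, 5 of them past the threshold (Emcn, Nfatc1, Cdh5, Pecam1 and Tie1). Their summed levels were 1835 to 2307 CPM against 1447 to 1717 CPM, without overlap. All 8 macrophage markers were also higher, 2 past the threshold (C1qb and C1qc), with overlapping sums of 10.1 to 34.0 CPM against 5.56 to 10.9 CPM. Sums of erythroid, epicardial and hepatic markers overlapped between the groups as well. All 8 erythroid markers were higher in cKO and 5 of 6 tested hepatic markers lower, with 0 past the threshold in either list. Over all genes tested, 0.858% passed. The libraries cKO 4 and control 3 stood apart in the mitochondrial counts, so several results that rest on them are also given without them.

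The comparison of cKO with control asked whether loss of Pkn2 in cardiomyocytes went with a different abundance of mitochondrial RNA. Both rRNAs were higher in cKO in every library than in any control library, the protein genes overlapped, and most tRNAs had no count. Of the 37 genes, 18 had a total of at least 8 counts and were tested, namely all 13 protein genes, both rRNAs and 3 tRNAs. None passed the FDR threshold in edgeR (0 of 18), where 0.858% of all 26820 genes tested did (0.515% higher and 0.343% lower in cKO). At an unadjusted p of at most 0.05 there were 3 of 18 (mt-Rnr1, mt-Rnr2 and mt-Tp), beside 12.8% of all genes tested. DESeq2 called 1 of them, where it called 867 genes in all, and limma-voom 1, where it called 168. The groups did not overlap for 2 of 18 genes (11.1%), both higher in cKO, against 6.91% of all genes tested in either direction, 3.14% with cKO higher and 3.77% with cKO lower.

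The protein genes took 3.20%, 3.17%, 3.45% and 2.54% of the counts in cKO libraries 1 to 4, and 3.06%, 2.99%, 3.74% and 3.13% in control libraries 1 to 4. Their means of 3.09% ± 0.387 in cKO and 3.23% ± 0.346 in control (SD, n = 4) differed by less than the spread, with the lowest share in cKO 4 and the highest in control 3. The difference of -0.135 percentage points turned to 0.048 without cKO 4 and to 0.035 without control 3. The rRNAs took 0.0799%, 0.0915%, 0.0866% and 0.116% in cKO and 0.0756%, 0.0723%, 0.0697% and 0.0635% in control. These ranges did not overlap, and the mean was 0.0936% ± 0.0158 against 0.0703% ± 0.00509 (SD, n = 4), a ratio of 1.33. The rRNA difference of 0.0233 percentage points was 0.0157 without cKO 4 and 0.0231 without control 3. The tRNAs together took 0.00139% to 0.00167% in control and 0.00150% to 0.00346% in cKO, where cKO 4 again was the highest. Their difference of 0.000620 percentage points was 0.000177 without cKO 4.

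**Figure D1:**
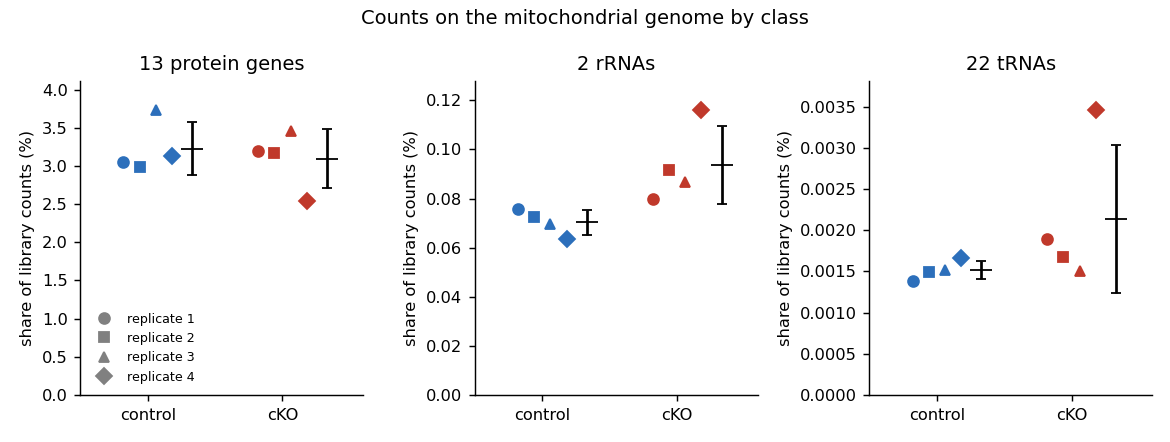
Share of each library's counts (%, y axis from 0) taken by the 13 protein genes, the 2 rRNAs and the 22 tRNAs in control and cKO; marker shapes give the replicate number, and the bar beside each group is its mean ± SD (n = 4). The rRNA shares of the cKO libraries, 0.0799% to 0.116%, all lie above those of control, while the protein shares overlap; cKO 4 is lowest for protein genes and highest for rRNAs and tRNAs.

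mt-Rnr1 (ENSMUSG00000064337, chrM:70-1024) encodes the 12S rRNA of the small mitochondrial ribosomal subunit. It was at 244, 249, 242 and 395 CPM in cKO libraries 1 to 4 and at 223, 198, 194 and 196 CPM in control libraries 1 to 4. All cKO values lay above all control values, and cKO 4 stood far above the other cKO libraries. The log2 fold change was 0.48 ± 0.12 (SE; edgeR, adjusted p = 0.0869), and the exact two-sided permutation test gave p = 0.0286, the smallest possible with 4 against 4. Without cKO 4 the log2 fold change was 0.28 (edgeR, adjusted p = 0.0367), so this library set much of its size, and the smaller estimate passed the threshold.

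mt-Rnr2 (ENSMUSG00000064339, chrM:1094-2675) encodes the 16S rRNA of the large subunit. Its levels were 557, 662, 612 and 771 CPM in cKO and 531, 517, 504 and 457 CPM in control. The groups again did not overlap, with a narrow gap between cKO 1 and control 1. The log2 fold change was 0.37 ± 0.084 (SE; edgeR, adjusted p = 0.0505; exact permutation p = 0.0286). It was 0.29 without cKO 4 (edgeR, adjusted p = 0.0657). With both cKO 4 and control 3 left out, the log2 fold changes were 0.26 for mt-Rnr1 and 0.29 for mt-Rnr2 (edgeR, adjusted p = 0.108 and 0.139). Both rRNAs were higher in cKO in all 19 alternative settings, with an adjusted p of at most 0.05 in 4 of them for mt-Rnr1 and in 7 for mt-Rnr2. These settings reuse the same libraries, whose levels did not overlap, so they are not independent evidence of the direction.

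A measure within the mitochondrial genome needs no scaling between libraries. The rRNA counts were 2.50%, 2.88%, 2.51% and 4.57% of the protein-gene counts in cKO and 2.47%, 2.42%, 1.87% and 2.03% in control. The sum was higher in cKO without overlap, although cKO 1 and control 1 lay close together. Its highest value was in cKO 4 and its lowest in control 3, the libraries that stood apart. Each rRNA alone overlapped on this measure. mt-Rnr1 was 0.710% to 1.55% of the protein-gene counts in cKO and 0.518% to 0.732% in control, and mt-Rnr2 was 1.74% to 3.02% and 1.35% to 1.75%. mt-Rnr1 was 37.6% to 51.2% of mt-Rnr2 in cKO and 38.2% to 42.9% in control, so the balance of the rRNAs overlapped, with the highest value in cKO 4. In the deposited TPM the rRNAs took 0.127% ± 0.0241 of the sum in cKO and 0.0930% ± 0.00619 in control (SD, n = 4), also without overlap. The endothelial markers above separated the groups in the same direction as the rRNAs, and their part in the rRNA difference was not tested. Among nuclear RNAs that lack a poly(A) tail, Rn7sk was at 1.18 to 2.46 CPM in cKO and 2.24 to 3.14 CPM in control (log2 fold change -0.62, edgeR, adjusted p = 0.209), and Rmrp and Rpph1 overlapped. None of these 3 RNAs, chosen after the rRNA values had been seen, was higher in cKO without overlap. Rmrp was at 0.353 to 0.741 CPM and Rpph1 at 0.747 to 1.24 CPM over the libraries. All 3 lay far below the rRNAs, so they cannot show how poly(A) selection held the rRNAs, which was not tested.

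**Figure D2:**
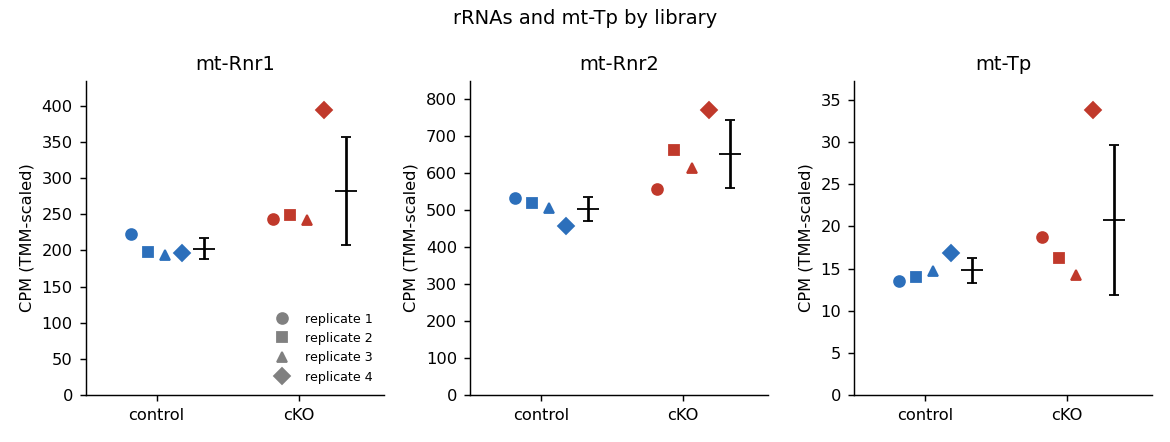
TMM-scaled CPM (y axis from 0) of mt-Rnr1, mt-Rnr2 and mt-Tp in each control and cKO library; marker shapes give the replicate number, and the bar beside each group is its mean ± SD (n = 4). The cKO libraries lie above all control libraries for both rRNAs but not for mt-Tp, and cKO 4 is the highest library for all 3 genes.

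None of the protein genes passed the FDR threshold, and their direction depended on the libraries that stood apart. With all 8 libraries the log2 fold changes ran from -0.12 to 0.20 with a median of -0.03, against -0.0008 over all genes tested, and 6 were higher and 7 lower in cKO. This and the gene numbers that follow include 6 genes, given below, whose counts are not a measure of their messenger RNA. mt-Co3 is 1 of these 6, and the other 7 genes ran from -0.12 (mt-Co1) to 0.02 (mt-Nd5). The adjusted p in edgeR was 0.640 to 0.997, and 0 of 13 had an unadjusted p of at most 0.05, beside 12.8% of all genes tested. DESeq2 called no protein gene, and neither did limma-voom. For most of these genes cKO 4 was the lowest cKO library and control 3 the highest control, and both were picked after seeing the data. Leaving both out raises the log2 fold changes by construction, so the values that follow cannot show a difference. Without cKO 4 and control 3, 12 of 13 were higher in cKO and 1 (mt-Nd3) lower, with a median log2 fold change of 0.16. An unadjusted p of at most 0.05 was then reached by 5 of 13, beside 10.3% of all genes in the same fit, and 0 were called. These 5 were mt-Nd5 at 0.23 (edgeR, adjusted p = 0.109), mt-Co3 at 0.46 (adjusted p = 0.255), mt-Nd6 at 0.16, mt-Nd4 at 0.14 and mt-Nd2 at 0.14. Without cKO 4 alone, and without control 3 alone, 10 of 13 were higher in cKO, while without control 2 it was 1 of 13.

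Of the complex I subunits, which take electrons from NADH, mt-Nd1 was at 4450, 4560, 4736 and 3955 CPM in cKO and at 4141, 4206, 5628 and 4506 CPM in control (log2 fold change -0.06 ± 0.090, SE). mt-Nd2 was at 2351, 2530, 2380 and 2357 CPM in cKO and at 2213, 2119, 2851 and 2309 CPM in control (0.02 ± 0.080). Control 3 was the highest library for both, and the other control libraries lay among or below the cKO values. mt-Nd4 was at 2155, 2010, 2185 and 1460 CPM against 1995, 1783, 2364 and 2014 CPM. mt-Nd5 was at 3336, 3088, 3106 and 2268 CPM against 2594, 2668, 3504 and 2872 CPM. Both overlapped, with cKO 4 lowest and control 3 highest. mt-Nd6, the only protein gene on the opposite strand, was at 890, 873, 961 and 671 CPM against 816, 799, 1070 and 837 CPM, the same pattern.

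mt-Cytb, the complex III subunit that carries electrons from ubiquinol, was at 6775, 6810, 7596 and 5124 CPM in cKO and at 6741, 6238, 7655 and 6956 CPM in control. mt-Co1, the catalytic subunit of complex IV, was the most counted member, at 12066, 11662, 13049 and 9639 CPM in cKO and 11975, 11672, 14304 and 12595 CPM in control. With all libraries it had the lowest log2 fold change of the protein genes, -0.12 ± 0.088 (SE; edgeR, adjusted p = 0.640), with overlapping groups. The change was 0.03 without cKO 4 and control 3.

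**Figure D3:**
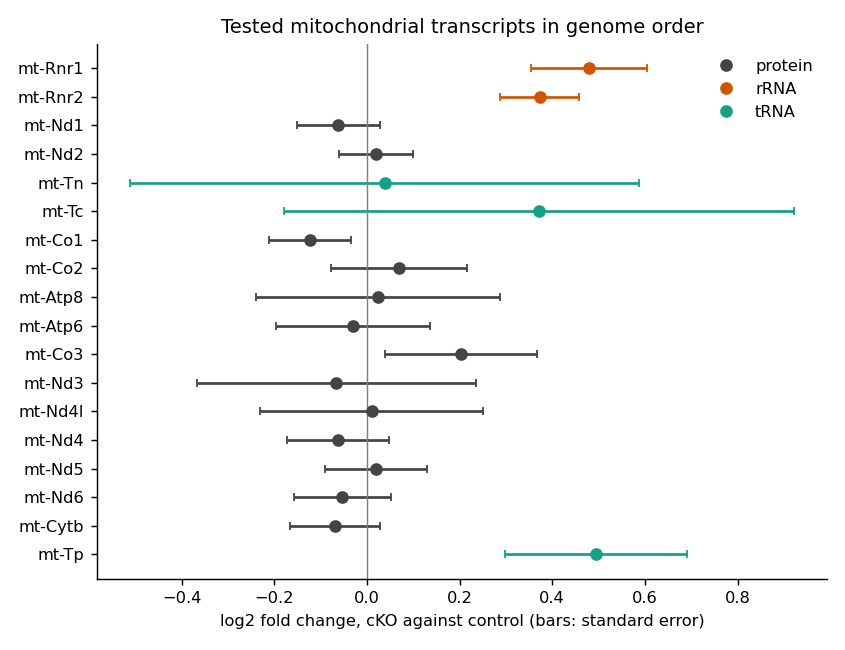
Log2 fold change of cKO against control (x axis; bars are the standard error from edgeR) for the 18 tested mitochondrial transcripts in genome order (y axis), coloured by class. Both rRNAs lie at 0.48 and 0.37, the protein genes lie between -0.12 and 0.20, and the tRNAs mt-Tn and mt-Tc have the widest errors.

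The share that each protein gene took of all protein-gene counts gave a second view without library scaling. mt-Co1 took 36.9% to 39.6% over the 8 libraries, mt-Cytb 20.1% to 22.3% and mt-Nd1 13.6% to 15.5%. These shares overlapped between the groups, as did those of the other 10 protein genes. mt-Nd2 was at 9.24% in cKO 4, above 6.99% to 8.02% in the other libraries, which is the opposite of mt-Nd4, whose lowest share of 5.72% was in cKO 4. The composition of the protein-gene counts in that library therefore differed, as well as their total. These counts do not mark strand, so they need not give the composition of the messenger RNAs.

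The genes inside the chromosome 1 copy had few counts. mt-Co2, mt-Atp8, mt-Atp6, mt-Co3, mt-Nd3 and mt-Nd4l had at least 90% of their bases in stretches of 150 or more bases, the labelled read length, that occur exactly in the nuclear genome. These 6 genes held 12005 of the 12999188 protein-gene counts, or 0.0924%, but 36.3% of the protein-gene TPM. Their levels in counts are therefore not a measure of their messenger RNA. Relative to TPM, and with mt-Nd1 set to 100, counts per kilobase were 0.169 to 0.470 for these 6 genes, 84.6 for mt-Co1 with 34.4% of its bases copied, and 70.7 for mt-Nd4 with 63.6% copied. The protein genes and rRNAs with no copied base lay between 90.5 and 103. The setting for reads that match several places was not given in the sources used here, and its part in these values was not tested.

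**Figure D4:**
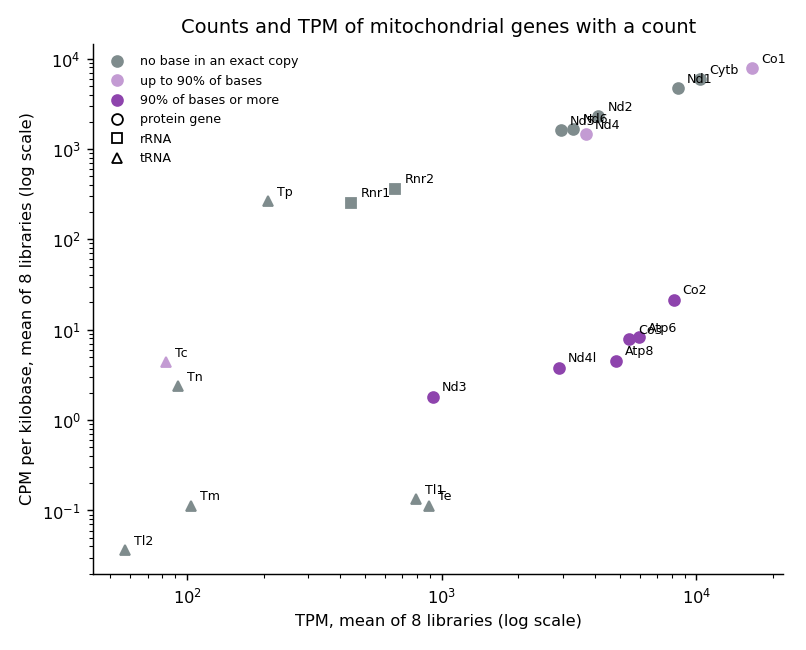
CPM per kilobase against TPM (both log scales, means of 8 libraries) for mitochondrial genes with at least 1 count; colour gives the share of bases in exact nuclear copies of 150 bases or more and shape gives the class. The 6 protein genes copied in full lie far below the other protein genes at similar TPM, while mt-Tp lies above the line of the rRNAs and uncopied protein genes.

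The few counts that these genes kept did not separate the groups. mt-Co2, the copper-bearing subunit of complex IV, was at 12.2, 19.1, 14.3 and 14.3 CPM in cKO and at 13.8, 11.2, 18.6 and 13.5 CPM in control. mt-Co3, the third mitochondrial subunit of that complex, was at 6.79, 8.39, 6.30 and 5.05 CPM against 5.25, 4.73, 7.30 and 5.75 CPM. It had the highest log2 fold change of the protein genes, 0.20 ± 0.16 (SE), which was -0.09 in TPM. Of the ATP synthase subunits, mt-Atp6, part of the proton channel, was at 3.96 to 6.91 CPM over the 8 libraries and mt-Atp8, its small partner, at 0.62 to 1.25 CPM. The complex I subunits mt-Nd3 and mt-Nd4l were at 0.33 to 0.77 and 0.89 to 1.48 CPM.

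The deposited annotation (GRCm38) holds 6 named pseudogenes in the copy, each the counterpart of a mitochondrial gene. Gm28661, at chr1:24614885-24615565, held 3135 counts where mt-Co2 held 6038, both summed over the 8 libraries. Gm10925 held 3603 counts against 2312 for mt-Atp6, and Gm28437 held 3786 against 2545 for mt-Co3. For these 3 pairs the counts thus lay within a factor of 2 of each other. Gm28438 held 5335 counts against 262 for mt-Nd3, or 20.4-fold more, and this is the pair with the T9461C difference inside the gene. The reference genome is that of C57BL/6J and the mice were C57BL/6N, and which base these mice carry there was not analysed here. At the ends, Gm29216 held 2123 counts against 4987896 for mt-Co1, and Gm28439 held 1219 against 820820 for mt-Nd4, whose remaining bases lie outside the copy.

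In the TPM table the 4 pairs of genes copied in full were nearly equal instead. TPM of the mitochondrial gene was 99.7% to 99.9% of that of its copy for mt-Co2, 99.6% to 99.9% for mt-Co3, 95.4% to 96.3% for mt-Atp6 and 92.2% to 95.4% for mt-Nd3. The genes copied in part stood higher, mt-Co1 at 200% to 232% of Gm29216 and mt-Nd4 at 185% to 225% of Gm28439. A pair so equal in every library cannot be read as a measurement of each place apart. With gene and copy summed, mt-Co2 was at 16293 ± 1435 TPM, mt-Atp6 at 12148 ± 2221, mt-Co3 at 10934 ± 1226 and mt-Nd3 at 1907 ± 112 (SD, n = 8 libraries of both groups). None of the 6 pseudogenes passed the FDR threshold in edgeR (0 of 6; lowest adjusted p = 0.809).

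**Figure D5:**
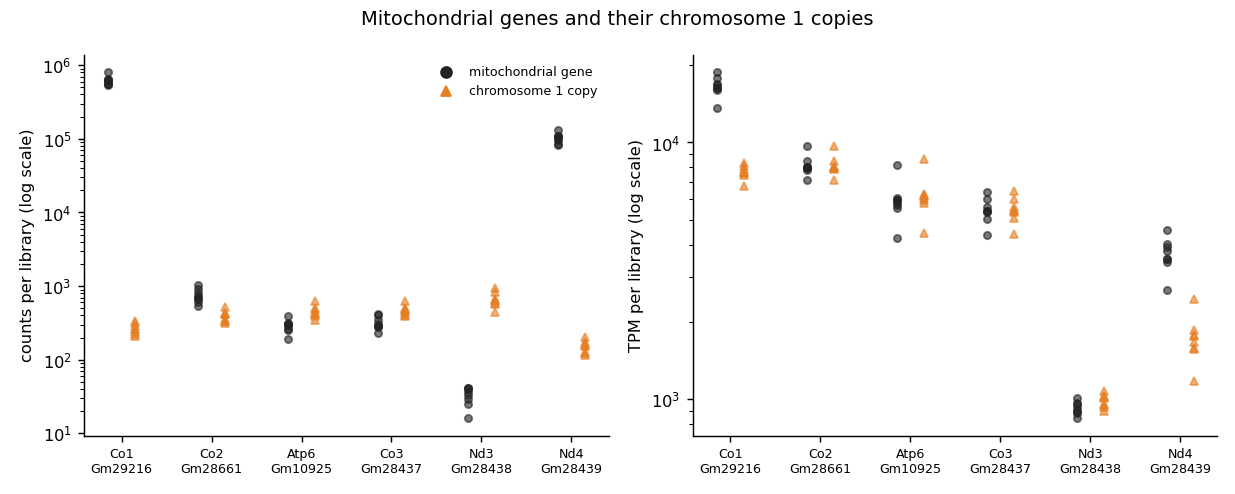
Counts (left) and TPM (right) per library, both on log axes, of 6 mitochondrial genes (circles) and their chromosome 1 copies (triangles), with 8 libraries each. In counts mt-Nd3 lies far below Gm28438 while mt-Co1 and mt-Nd4 lie far above their copies; in TPM the 4 genes copied in full lie level with their copies.

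Levels between genes can be compared only per length, and TPM gave an order of means over the 8 libraries. mt-Co1 was highest at 16556 TPM, followed by mt-Cytb at 10359, mt-Nd1 at 8447 and mt-Co2 at 8138. mt-Atp6 (5945), mt-Co3 (5459), mt-Atp8 (4832), mt-Nd2 (4121), mt-Nd4 (3673), mt-Nd6 (3290), mt-Nd5 (2947) and mt-Nd4l (2885) formed the middle. mt-Nd3 was lowest at 923 TPM. Only mt-Co1 and mt-Cytb, and mt-Nd4l and mt-Nd3, were neighbours whose ranges over the libraries did not overlap. mt-Nd5 exceeded mt-Nd4l in 5 of 8 libraries. The places of the copied genes in this order rest on how TPM was divided between gene and copy. The kit does not mark strand, so the level of mt-Nd6 can hold reads of transcripts running across it. mt-Atp8 and mt-Atp6 overlap, as do mt-Nd4l and mt-Nd4, so the levels within these pairs are not fully separate.

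The tRNAs, which bring amino acids to the mitochondrial ribosome, were almost absent from the counts. No count was found for 15 of the 22, which allows a counted level of up to 0.0529 to 0.0631 CPM in a library (3 counts of its unscaled total, counting error only). This is not a bound on the RNA, as reads that span several genes may have been left uncounted. A further 4 had 1 to 4 counts over all libraries (mt-Tl1 4, mt-Tm 3, mt-Te 3 and mt-Tl2 1). The other 3 were mt-Tp, mt-Tc and mt-Tn, and mt-Tp alone held 97.4% of all tRNA counts. Of these 3, only mt-Tc had bases in such copies, at 78.8%.

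mt-Tp lies beside the noncoding control region, with 877 bases to the next annotated gene, mt-Tf, which borders the same region and had no count. It was at 18.8, 16.3, 14.2 and 33.9 CPM in cKO and at 13.6, 14.0, 14.7 and 16.9 CPM in control. The groups overlapped and cKO 4 was the highest. The log2 fold change was 0.49 ± 0.20 (SE; edgeR, adjusted p = 0.288; exact permutation p = 0.171), and 0.16 without cKO 4 (edgeR, adjusted p = 0.621). mt-Tc had 4 to 33 counts per cKO library and 5 to 22 per control library, and mt-Tn had 3 to 14 and 5 to 15. Their log2 fold changes of 0.37 ± 0.55 and 0.04 ± 0.55 (SE) are too imprecise to show a difference at this depth. mt-Tn and mt-Tc flank a gap of 32 bases without a gene. Of the 18 tRNAs with fewer than 10 free bases on either side, 14 had no count and the most for any was 4 counts in all libraries, and the setting for reads that span several genes was not given in the sources used here.

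The TPM table listed all 15 tRNAs of zero count above 0 in every library. The highest mean over the libraries was 1346 TPM for mt-Ts1, which carries serine, then 892 for mt-Te and 791 for mt-Tl1, against 207 for mt-Tp. Such values come from a transcript estimate over genes shorter than a read and are given as listed. The 22 tRNAs summed to 0.428% ± 0.0263 of TPM in cKO and 0.381% ± 0.0403 in control (SD, n = 4), and 18 had a higher mean in cKO. In TPM the groups did not overlap for 2 of the 22 tRNAs (mt-Tq and mt-Tm, both higher in cKO), beside 5.94% of all 26830 genes compared in TPM in either direction and 3.46% with cKO higher. mt-Tq was at 31.4, 33.6, 31.6 and 82.3 TPM in cKO and at 16.3 to 23.5 TPM in control. mt-Tm was at 116, 115, 103 and 219 TPM in cKO and at 56.1 to 77.9 TPM in control. Neither passed the threshold in limma on log2(TPM + 1) (adjusted p = 0.332 and 0.273), and both were highest in cKO 4.

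The libraries that stood apart did so across the classes. In TPM, control 3 was the highest library for 12 of 13 protein genes and cKO 4 the lowest for 11 of 13, while cKO 4 was the highest for 13 of 22 tRNAs. Hemoglobin genes took 0.475% of the counts in cKO 4 and 0.461% in control 3, the highest shares of the 8 libraries, and their part in the mitochondrial values was not tested.

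Nuclear genes that copy, transcribe and process mitochondrial DNA and RNA were examined beside these transcripts. Of 26 genes for transcription and replication, 0 passed the FDR threshold in edgeR. The median log2 fold change was -0.05, with 5 higher and 21 lower in cKO. Those of lowest p were Tfb2m, a transcription factor of the mitochondrial RNA polymerase, at -0.26 (edgeR, adjusted p = 0.146), the exonuclease Mgme1 at -0.20 and the membrane ATPase Atad3a at -0.14. Of 40 genes for RNA processing and decay, 0 passed, with 6 higher and 34 lower and a median of -0.07. Pnpt1, the polynucleotide phosphorylase that degrades mitochondrial RNA, was at -0.25 (edgeR, adjusted p = 0.116), Rexo2, an oligoribonuclease, at -0.21 and Tbrg4, of the FASTK family, at -0.18. Of 23 genes for mitochondrial tRNA synthetases and enzymes that act on charged tRNAs, 0 passed, with 2 higher and 21 lower and a median of -0.07. Among those of lowest p were the synthetases Yars2 at -0.21 and Aars2 at -0.18. Most genes of the 3 lists thus had small log2 fold changes below 0, where the median over all genes tested was -0.0008. DESeq2 called 1 gene in these 3 lists, where it called 867 genes in all.

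Of 31 nuclear subunits that assemble with the mitochondrial ones, 5 were higher and 26 lower in cKO (median -0.08 on the log2 scale). The threshold was passed by 1 of them, beside 0.858% of all genes tested (0.343% lower in cKO). Uqcrc1, a core protein of complex III and so a partner of mt-Cytb, was at 308, 320, 330 and 322 CPM in cKO and at 365, 377, 383 and 383 CPM in control. All cKO values lay below all control values, as they did for 3.77% of all genes tested. The log2 fold change was -0.24 ± 0.052 (SE; edgeR, adjusted p = 0.0404), and the count of calls among these subunits was 0 when any of cKO 1, cKO 2 or a control library was left out and 4 without cKO 3. Cyc1 and Uqcrfs1, also of complex III, were at -0.26 and -0.20 (edgeR, adjusted p = 0.0887 and 0.139), and mt-Cytb itself was at -0.07 ± 0.098 (SE).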

How the data were processed

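Ventricular RNA of 4 Pkn2 cKO and 4 control mouse embryos at E10.5 was sequenced from poly(A)-selected TruSeq v2 libraries as paired reads of 150 bp per the labels (the series text gives a shorter length). The submitters' processing notes name Trim Galore 0.6.7, HISAT2 2.2.1, StringTie 2.2.1 and featureCounts, and the methods name GRCm39. The authors deposited a table of raw, unnormalized counts by gene symbol and a TPM table that gives gene positions of GRCm38. Settings for strand and for reads matching several places or genes are not given in the sources used here. Columns not used numbered 0.

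Differential expression was tested with edgeR 4.0.16 in R 4.3.3 (quasi-likelihood F test, TMM, condition as the only term) on 26820 genes whose counts summed to 8 or more, and p values were adjusted by Benjamini-Hochberg over all of them. A gene was called at an adjusted p of at most 0.05. Exact permutation tests on log2 CPM were two-sided. The fit was tested on simulated data. Depth was 47559845 to 56660938 counts per library, which leaves counting error small except for genes with few counts.

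Nuclear copies were found by a match of GRCm39 mitochondrial DNA to the nuclear chromosomes (BLAST 2.17.0, word size 28), and printed sequences come from GENCODE M39 and GRCm39. The mitochondrial genes and the nuclear lists were chosen with earlier results of these data known. The text names all mitochondrial genes with a count, and in each nuclear list the genes called and the 3 of lowest p, except that 1 gene is not reported here. Of the processing list, 40 of 41 symbols were found, and of the partner list 31 of 32. Alternatives were DESeq2 1.42.0, limma-voom and limma 3.58.1 on log2 TPM (pseudocounts 1 and 0.1), other scalings and filters, a replicate block and each library left out. Leaving out both cKO 4 and control 3 was chosen after seeing the data.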

Additional observations from a re-analysis of the deposited data

Results flagged for a closer look

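For each mitochondrial gene, the 4 libraries of a group were searched for 1 value far from the other 3 (Dixon's test at the 95% level), in CPM and in TPM. Of 116 groups of 4, 22 held such a value, where chance flags about 1 in 20; cKO 4 was the library in 11 of them and control 3 in 9. Genes of 1 library share their depth and RNA, so these are not independent.

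In CPM, mt-Rnr1 was far above the rest of its group at 395 in cKO 4 and, within the control group, at 223 in control 1. mt-Nd2 was high at 2530 CPM in cKO 2 and mt-Nd6 at 1070 CPM in control 3. In TPM, cKO 4 was high for mt-Rnr1 (730) and for 7 tRNAs encoded on either side of mt-Nd2, namely mt-Ti (43.5), mt-Tq (82.3), mt-Tm (219), mt-Ta (176), mt-Tn (193), mt-Tc (172) and mt-Ty (129). The same library was low in TPM for mt-Atp6 (4260) and mt-Nd4l (2081). Control 3 was high in TPM for mt-Nd2 (4786), mt-Co2 (9677), mt-Atp8 (7135), mt-Atp6 (8202), mt-Nd4l (3888), mt-Nd4 (4556), mt-Nd6 (3943) and mt-Te (1085).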

How the results depend on the processing

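The log2 fold changes of mt-Rnr1 and mt-Rnr2 were above 0 in all 19 alternatives, at 0.26 to 0.59 (adjusted p 0.000878 to 0.352) and 0.29 to 0.47 (adjusted p 0.00116 to 0.285). The alternatives reuse the same libraries and are not independent. The number of mitochondrial genes called, 0 in edgeR with TMM, was 1 with DESeq2 size factors, 3 without a filter, 1 with DESeq2, 1 with limma-voom and 0 to 2 with 1 library left out. All genes called, 230 in edgeR, were 878 without a filter, 867 with DESeq2, 2 and 5 with limma on log2 TPM (pseudocounts 1 and 0.1), 112 without cKO 4 and control 3, and 67 to 744 with 1 library left out. Calls in the 3 lists of genes acting on mitochondrial DNA and RNA were 1 without a filter, 1 with DESeq2 and 0 to 2 with 1 library left out. Calls among the partner subunits were 2 without a filter, 3 with DESeq2, 0 and 0 with limma on TPM, 0 without cKO 4 and control 3, 0 when scaled to the mitochondrial protein-gene counts, and 0 to 4 with 1 library left out. That scaling moved the median of all genes to 0.08 and the calls to 205 higher and 41 lower, from 138 and 92. The cause of these shifts was not tested. The tRNA share difference was 0.0464 percentage points in TPM, against 0.000620 in counts.

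Libraries of the same replicate number gave no sign of pairing, with correlations of -0.19, -0.03, 0.0056 and -0.14 over 14302 genes. The highest between the groups was 0.18, for cKO 3 with control 1, and pairing by litter was not tested. With a replicate block, 2 mitochondrial genes (both rRNAs), 380 genes in all and 0 partner subunits were called.

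The genes below changed sign, none past the threshold. The largest of them with all libraries in edgeR were mt-Tc at 0.37 and mt-Co3 at 0.20. Scaled to protein-gene counts, log2 fold changes were 0.021 for mt-Nd1, 0.052 for mt-Atp6, 0.023 for mt-Nd3, 0.0036 for mt-Nd4 and 0.019 for mt-Nd6. With limma-voom they were -0.011 for mt-Tn, -0.011 for mt-Atp8 and -0.0018 for mt-Nd4l. With limma on TPM at either pseudocount they were -0.10 for mt-Co2, -0.19 for mt-Atp8, -0.092 for mt-Co3, 0.044 for mt-Nd3 and -0.077 for mt-Nd4l. Without cKO 4 and control 3 they were 0.10 for mt-Nd1, -0.036 for mt-Tc, 0.028 for mt-Co1, 0.18 for mt-Atp6, 0.14 for mt-Nd4, 0.16 for mt-Nd6 and 0.094 for mt-Cytb. With 1 library left out, the ranges were -0.11 to 0.047 for mt-Nd1, -0.022 to 0.12 for mt-Nd2, -0.21 to 0.37 for mt-Tn, -0.098 to 0.82 for mt-Tc, -0.061 to 0.22 for mt-Co2, -0.13 to 0.20 for mt-Atp8, -0.16 to 0.081 for mt-Atp6, -0.18 to 0.14 for mt-Nd3, -0.092 to 0.17 for mt-Nd4l, -0.12 to 0.062 for mt-Nd4, -0.039 to 0.13 for mt-Nd5, -0.12 to 0.054 for mt-Nd6 and -0.14 to 0.042 for mt-Cytb.

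Depth limits the tRNAs: 19 of 22 were not tested, and filterByExpr kept 17 of the 18 tested genes.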
